A study of Mus musculus with 12 samples.

Results

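The naïve pluripotency transcription factors described here are 10 genes, Nanog, Klf2, Klf4, Klf5, Esrrb, Tfcp2l1, Tbx3, Prdm14, Nr0b1 and Zfp42, read by their symbols from a table of 26061 genes. All 10 were found, Tfcp2l1 under its older symbol Tcfcp2l1, and all 10 were among the 14185 genes tested, whose mean over the 12 libraries lay at least 1 log2 unit above the lowest value of the table. The libraries came from Tet2 KO mouse embryonic stem cells (ESCs) that stably carried a PiggyBac construct for WT TET2 or for a catalytically inactive mutant TET2. Both rescue lines were infected with shSetdb1, a hairpin against the H3K9 methyltransferase SETDB1, were selected with puromycin, and were grown without feeders in 2i medium (naïve ESCs) or in serum medium (primed ESCs), both with LIF. There were 3 libraries in each of the 4 groups. Every group therefore carried the Tet2 deletion and the Setdb1 hairpin, and libraries with a non-targeting hairpin were not analysed here. Each construct was represented by 1 line, and the sources used here do not say whether a line was a clone or a pool, or whether the 3 libraries of a group came from separate cultures, so the p-values measure the spread between these libraries.

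The naïve pluripotency network is the set of transcription factors that, together with OCT4 and SOX2, keeps mouse ESCs in a state like that of the early epiblast. LIF, through JAK and STAT3, is known to activate Klf4 and Tfcp2l1, whereas inhibition of GSK3 relieves TCF7L1 repression of Esrrb and Nanog. Inhibition of MEK removes the FGF signal through ERK that favours exit from the naïve state. 2i medium holds both inhibitors (PD0325901 against MEK and CHIR99021 against GSK3), and serum medium holds neither. The media also differ in base medium, serum and supplements, so effects of these and of the inhibitors cannot be told apart here. The network is known for its redundancy: several of its factors can be lost singly without loss of self-renewal.

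Promoter sequences are shown for Tfcp2l1, which differed most between the media, for Nanog, which has a well known promoter element, and for the 2 factors that were lower in naïve ESCs, Zfp42 and Nr0b1. RefSeq windows were matched for 7 of the 10 factors (not Klf5, Tbx3 or Prdm14). Each line below gives the 250 bases before the annotated start on the gene's strand, in GRCm38.p6, with capitals for matches to the motifs named after them.
Tfcp2l1, chr1:118627695-118627944, + strand: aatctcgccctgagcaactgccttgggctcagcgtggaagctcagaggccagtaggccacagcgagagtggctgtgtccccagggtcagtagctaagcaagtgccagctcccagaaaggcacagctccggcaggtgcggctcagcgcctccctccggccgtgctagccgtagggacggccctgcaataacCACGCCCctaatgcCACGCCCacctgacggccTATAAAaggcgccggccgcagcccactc
Nanog, chr6:122707239-122707488, + strand: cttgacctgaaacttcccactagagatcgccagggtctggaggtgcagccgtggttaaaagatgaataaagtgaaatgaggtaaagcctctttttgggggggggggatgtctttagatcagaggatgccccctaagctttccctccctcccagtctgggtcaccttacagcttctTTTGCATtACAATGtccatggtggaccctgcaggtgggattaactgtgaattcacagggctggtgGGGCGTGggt
Zfp42, chr8:43307010-43307259, - strand: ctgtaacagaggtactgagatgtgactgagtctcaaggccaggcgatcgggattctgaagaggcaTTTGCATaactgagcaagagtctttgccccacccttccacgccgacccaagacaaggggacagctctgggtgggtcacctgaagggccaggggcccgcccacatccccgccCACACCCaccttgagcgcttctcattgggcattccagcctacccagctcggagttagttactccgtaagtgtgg
Nr0b1, chrX:86191525-86191774, + strand: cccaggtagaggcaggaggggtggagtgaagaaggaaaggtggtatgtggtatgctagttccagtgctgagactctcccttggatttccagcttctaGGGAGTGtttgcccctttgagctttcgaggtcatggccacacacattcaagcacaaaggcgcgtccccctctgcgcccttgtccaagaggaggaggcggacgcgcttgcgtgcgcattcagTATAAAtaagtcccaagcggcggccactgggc
All motifs were searched on both strands. A factor was counted when any of its windows matched, and Nanog and Esrrb had 2 windows each, whereas the percentages are of single windows. Nanog held an octamer and a SOX match 1 base apart, the juxtaposed element that OCT4 and SOX2 are known to bind, at 75 to 62 bases before the start of the window printed here and at 151 to 138 bases before a second annotated start of Nanog. The octamer core, TTTGCAT, was found in 2 of the 7 factors (Nanog and Zfp42) and in 4.12% of all 32851 windows. The core of SOX sites was searched as ACAATG, and it was found in 1 of the 7 factors (Nanog) and in 10.7% of the windows. KLF factors bind GC-rich boxes such as GGGNGTG, which 5 of the 7 factors (Nanog, Esrrb, Tfcp2l1, Nr0b1 and Zfp42) and 26.1% of all windows held. The TATA box was searched as TATAAA, which stood before Tfcp2l1 and Nr0b1, 2 of 7, and in 12.4% of the windows. The letters TTCNNNGAA of a STAT site were in 1 window of Esrrb and in 7.02% of all windows. The ESRR site, AAGGTCA, was in none of the 7 factors and in 4.08% of the windows. The TCF site was searched as CTTTGAT, which was in none of the 7 and in 3.21%. These matches describe the letters of the windows and are not evidence of binding.

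Library depth was 8066662 to 21335933 reads in genes. Tet2, the rescued gene, was higher with the WT than with the mutant construct in naïve ESCs (log2 difference 2.16 ± 0.34 SE, adjusted p = 0.0154) and in primed ESCs (1.84 ± 0.34, adjusted p = 0.0297, limma), so the lines differed in Tet2 RNA as well as in the mutation. The paper reports similar amounts of TET2 protein in the WT and mutant rescue lines by Western blot, and these RNA values do not measure protein. Tet2 RNA was also lower in naïve than in primed ESCs, 2.76-fold with WT and 3.47-fold with mutant TET2, and its part in the results below was not tested. Setdb1, which the hairpin targets in every library, had 114 to 585 reads, and its difference between the lines was 0.13 ± 0.25 in naïve ESCs (adjusted p = 0.857) and 0.16 ± 0.25 in primed ESCs (adjusted p = 0.788). Its mean was lower in naïve than in primed ESCs, 1.39-fold with WT (-0.45 ± 0.25, adjusted p = 0.167) and 1.43-fold with mutant TET2 (-0.42 ± 0.25, adjusted p = 0.201, limma). Neither difference between media passed the test, and the part of Setdb1 in the results below was not tested. The 6 markers of pluripotent cells (Pou5f1, Sox2, Sall4, Lin28a, Utf1 and Dppa4) summed to 19600 to 20700 normalised reads in naïve and 26800 to 33400 in primed libraries. Pou5f1 and Sox2 did not pass the test between media in either line, whereas Sall4, Lin28a, Utf1 and Dppa4 were called lower in naïve ESCs in both. The 4 fibroblast markers summed to 1710 to 3670, mostly Vim, with Col1a2 at 0 in every group. Trophoblast markers summed to 1080 to 1570 in naïve and 1590 to 2750 in primed libraries, mostly Tfap2c (Tcfap2c), with Elf5 and Gata3 at 0 in the naïve groups. Neural markers summed to 1130 to 1800 and 2310 to 3280, mostly Tubb3 and Nes. Primitive endoderm markers summed to 331 to 945, mostly Lama1 and Col4a1, and mesoderm markers to 79.4 to 195, mostly Eomes and Gsc, over all groups. The part of such cells in the values below was not tested, and in these bulk libraries fewer cells that express a gene and less RNA per cell cannot be told apart.

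The factors differed widely in level. In RPKM, reads per kilobase of exon scaled to the gene reads of the library, Nanog was the highest of the 10 in every group, at 712 ± 74.6 (SD, n = 3) with WT TET2 in naïve ESCs and 496 ± 64.4 in primed ESCs. Zfp42 was among the next, at 92.5 ± 45.3 and 172 ± 10.2 in the same groups, beside Klf2 at 96.7 ± 23.0 and 96.3 ± 14.6. Tfcp2l1 held the fifth place in naïve ESCs with WT TET2 (77.7 ± 13.0) and the ninth in primed ESCs (16.1 ± 4.19). Prdm14 was the lowest of the 10 in primed ESCs (6.24 ± 0.741 with WT TET2), and Nr0b1 was the lowest in naïve ESCs (18.6 ± 4.19). The places of Klf4, Klf5, Esrrb and Tfcp2l1 between these lay close together in naïve ESCs, and the length used for Esrrb moved its place.

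**Figure D1:**
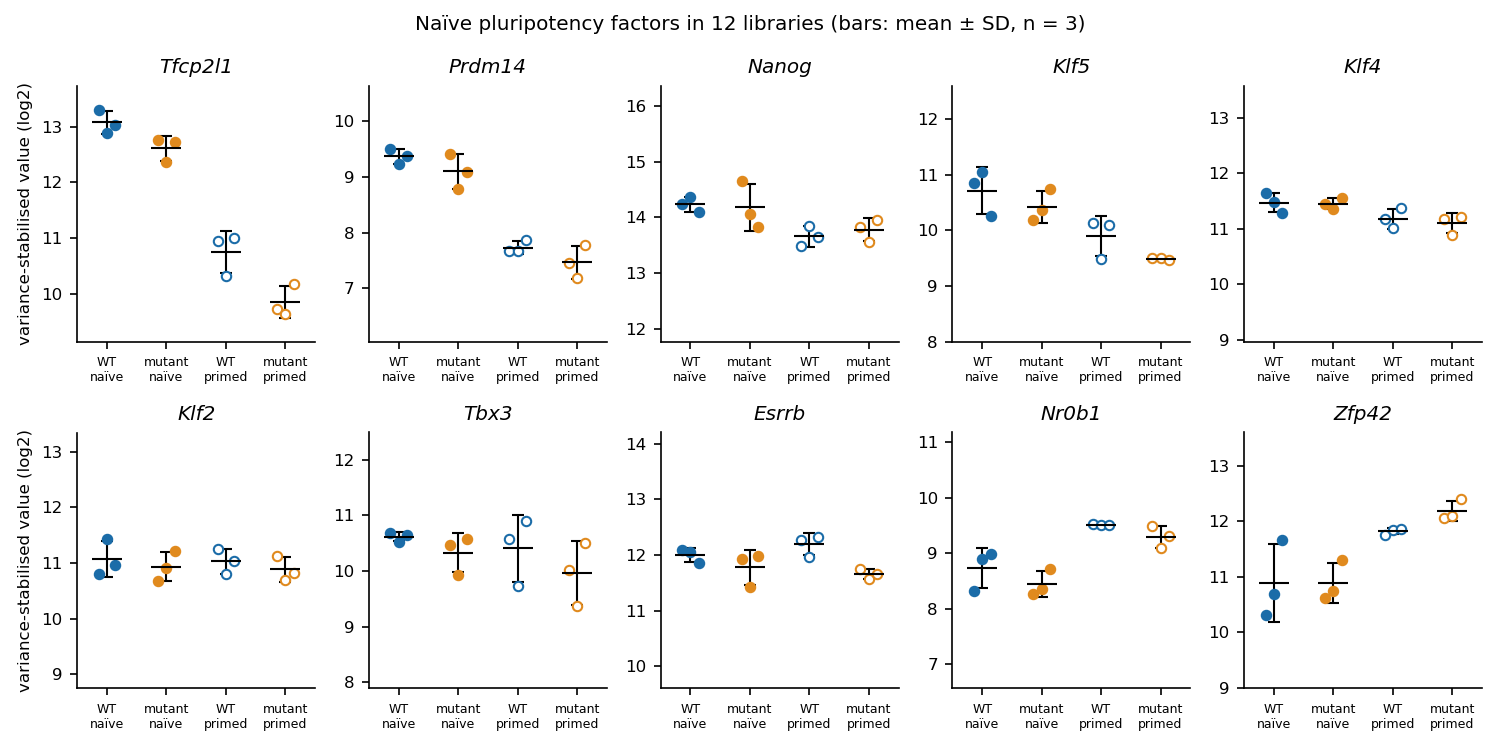
Each panel plots 1 factor, with the deposited variance-stabilised value (log2) on the y axis, which spans the same number of log2 units in every panel, and the 4 groups on the x axis. Points are libraries, with filled points for naïve and open points for primed ESCs, and bars are the mean ± SD of 3 libraries. Tfcp2l1 and Prdm14 sit far higher in the naïve groups, Zfp42 and Nr0b1 sit lower, and Klf2 overlaps in all groups.

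The first comparison asks how the factors differ between naïve and primed ESCs of 1 line. The factors did not move as a block: with WT TET2, 4 of the 10 were higher in naïve ESCs (Tfcp2l1, Prdm14, Klf5 and Nanog), 2 were lower (Zfp42 and Nr0b1), and 4 did not pass the test (limma across all genes tested, Benjamini-Hochberg adjusted p under 0.05). Of all genes tested, 18.6% were called higher and 17.3% lower in that comparison. With mutant TET2, 3 of 10 were higher (Tfcp2l1, Prdm14 and Klf5) and 2 lower (Zfp42 and Nr0b1), where 18.3% and 16.9% of all genes were called. Against these shares, 4 and 3 of 10 higher are above the background by few genes and 2 of 10 lower are near it, and no test was made of that. Without the filter on low genes, 3 factors instead of 6 were called with WT TET2. The median difference over the 10 factors was 0.25 with WT and 0.36 with mutant TET2, beside 0.01 and -0.01 over all genes tested. The groups did not overlap, with every naïve library above every primed library, for 4 of 10 factors in each line (25.5% of all genes with WT and 22.3% with mutant TET2), and the reverse held for 2 of 10 (24.5% and 21.2%). For each factor called, the exact two-sided permutation test of 3 against 3 libraries gave 0.1, the smallest p it can give.

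Tfcp2l1, a CP2 family factor on which the inputs of both inhibitors and of LIF are known to converge, had the largest difference of the 10. Its values, on the variance-stabilised log2 scale used for all values that follow, were 13.31, 12.89 and 13.04 in naïve ESCs with WT TET2 and 10.94, 10.31 and 11.00 in primed ESCs. With mutant TET2 they were 12.76, 12.36 and 12.73 against 9.72, 9.64 and 10.17. All naïve libraries lay above all primed libraries. The log2 difference was 2.33 ± 0.20 (SE) with WT TET2, 5.01-fold in normalised reads, which are reads divided by the size factor of the library (adjusted p = 4.14e-07), and 2.77 ± 0.20 with mutant TET2, 6.97-fold (adjusted p = 9.51e-08). The gene lies at chr1:120524522-120581744 in mm9 and has 15 annotated exons.

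Prdm14, which is known to restrain FGF receptor signalling and the de novo DNA methyltransferases in ESCs, came next. Its values were 9.50, 9.24 and 9.37 in naïve and 7.67, 7.67 and 7.86 in primed ESCs with WT TET2. With mutant TET2 they were 9.42, 8.79 and 9.10 against 7.46, 7.18 and 7.77. The difference was nearly equal in both lines, at 1.64 ± 0.19 (3.42-fold, adjusted p = 8.2e-06) and 1.63 ± 0.19 (3.47-fold, adjusted p = 9.12e-06), again without overlap. Its counts were the lowest among the factors, 108 to 388 reads in primed libraries.

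Klf5, a Krüppel-like factor that acts with Klf2 and Klf4 in ESC self-renewal, was higher in naïve ESCs by a smaller amount. Its values were 10.85, 11.05 and 10.25 in naïve and 10.13, 9.48 and 10.09 in primed ESCs with WT TET2, so that 1 naïve library lay only just above the highest primed ones. With mutant TET2 they were 10.18, 10.36 and 10.74 against 9.50, 9.51 and 9.46. The difference was 0.81 ± 0.22 (1.79-fold, adjusted p = 0.00809) and 0.94 ± 0.22 (1.98-fold, adjusted p = 0.00337). With WT TET2 it missed the threshold when low genes were not filtered (adjusted p = 0.054).

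Nanog, a homeobox factor at the centre of the network, was higher in naïve ESCs with WT TET2, by a call that several alternatives removed. Its values were 14.24, 14.36 and 14.10 in naïve and 13.48, 13.85 and 13.64 in primed ESCs. The difference was 0.57 ± 0.20 (1.48-fold, adjusted p = 0.0357), without overlap. The difference stayed at 0.41 to 0.67 in the alternatives, but the adjusted p missed the threshold without the filter (0.144, difference 0.57), under quantile normalization (0.0969, difference 0.41), and without WT primed replicate 1 (0.146, difference 0.48) or 3 (0.0924, difference 0.57) or WT naïve replicate 1 (0.0713, difference 0.57) or 2 (0.0997, difference 0.51). With mutant TET2 the values were 14.65, 14.05 and 13.83 against 13.82, 13.56 and 13.96, which overlapped, and the difference was 0.40 ± 0.20 (adjusted p = 0.137). Without mutant naïve replicate 3 it was 0.57 (adjusted p = 0.0448). The difference between the lines' effects was 0.18 ± 0.28 (adjusted p = 0.982), so the call in 1 line was not shown to be particular to it.

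Zfp42 (also called Rex1), a zinc finger protein related to YY1 and a common marker of undifferentiated ESCs, was lower in naïve ESCs. Its values were 10.31, 10.69 and 11.66 in naïve and 11.76, 11.85 and 11.86 in primed ESCs with WT TET2. With mutant TET2 they were 10.62, 10.74 and 11.30 against 12.06, 12.09 and 12.40. The groups did not overlap, but naïve replicate 3 with WT TET2 lay just below the lowest primed library of that line. The difference was -0.94 ± 0.26 (1.78-fold lower, adjusted p = 0.0105) and -1.29 ± 0.26 (2.43-fold lower, adjusted p = 0.00129). With WT TET2 the call was lost without the filter (adjusted p = 0.0823) and without WT naïve replicate 1 (difference -0.65, adjusted p = 0.0595). Naïve replicate 3 was the highest for Zfp42 in both lines, and it was also the highest for Tet2 (6786, 8672 and 16370 normalised reads with WT and 1525, 1763 and 3918 with mutant TET2) and for Setdb1 (log2 values of 8.21 and 8.04, beside 7.46 to 7.73 in the other naïve libraries). Their part in the Zfp42 values was not tested.

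Nr0b1 (also called Dax1), an X-linked orphan nuclear receptor that is known to bind and inhibit OCT4, was also lower in naïve ESCs. Its values were 8.32, 8.89 and 8.99 in naïve and 9.53, 9.51 and 9.50 in primed ESCs with WT TET2. With mutant TET2 they were 8.27, 8.35 and 8.71 against 9.49, 9.09 and 9.30. The difference was -0.78 ± 0.19 (1.73-fold lower, adjusted p = 0.00443) and -0.85 ± 0.19 (1.87-fold lower, adjusted p = 0.00254), without overlap, and both calls held under each alternative tried.

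**Figure D2:**
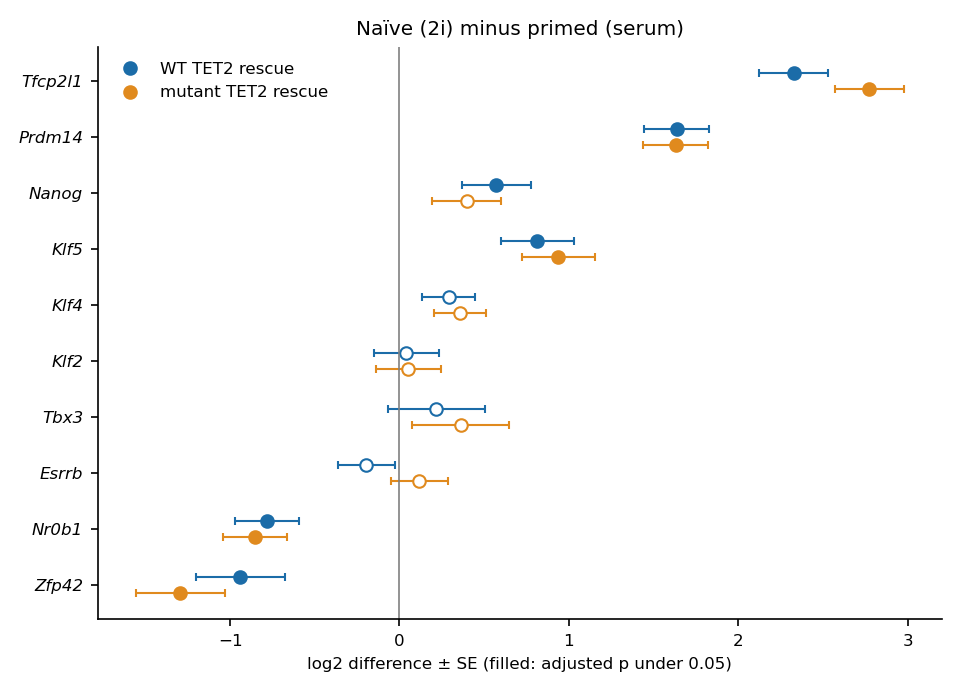
The x axis gives the log2 difference of naïve minus primed ESCs with its SE, and the rows are the 10 factors. Points are coloured by rescue line and filled where the adjusted p is under 0.05. Tfcp2l1 (2.33 and 2.77) and Prdm14 (1.64 and 1.63) stand furthest to the right, Nr0b1 and Zfp42 lie left of 0, and the 4 factors Klf4, Klf2, Tbx3 and Esrrb have only open points.

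The remaining factors did not pass the test in either line. Klf4, a STAT3 target, had values of 11.64, 11.48 and 11.29 in naïve and 11.17, 11.01 and 11.37 in primed ESCs with WT TET2, and its difference was 0.29 ± 0.15 (adjusted p = 0.152). With mutant TET2 its naïve libraries (11.44, 11.36 and 11.55) lay above all primed libraries (11.18, 10.89 and 11.22), and the difference was 0.36 ± 0.15 (adjusted p = 0.0814), which passed under quantile normalization alone (0.43, adjusted p = 0.0478). Klf2, whose protein is known to be destabilised by ERK phosphorylation, ranged from 10.68 to 11.43 in naïve and from 10.70 to 11.25 in primed libraries, and its difference was 0.04 ± 0.19 with WT and 0.05 ± 0.19 with mutant TET2 (adjusted p = 0.89 and 0.858). RNA levels say nothing of protein levels here. Esrrb, an orphan nuclear receptor that can stand in for Nanog in several settings, differed by -0.20 ± 0.17 with WT (adjusted p = 0.383) and 0.12 ± 0.17 with mutant TET2 (adjusted p = 0.628), and its highest group was primed ESCs with WT TET2 (12.28, 11.97 and 12.33).

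Tbx3, a T-box factor of the branch that runs through phosphatidylinositol 3-kinase, was the most variable of the factors in primed ESCs. With WT TET2 its primed values were 10.58, 9.73 and 10.90, and with mutant TET2 they were 10.01, 9.37 and 10.51, so replicate 2 was lowest in both lines. The naïve values were 10.69, 10.52 and 10.64 with WT and 10.47, 9.93 and 10.58 with mutant TET2, and the media overlapped in both lines. The difference was 0.22 ± 0.29 (adjusted p = 0.584) and 0.36 ± 0.29 (adjusted p = 0.348). The exons of Tbx3 overlap the gene Gm2301 on the other strand, and reads of both cannot be told apart in these non-directional libraries.

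The pathways that feed the factors were described from gene lists. The shares of all genes called were 18.6% higher and 17.3% lower with WT TET2, and 18.3% and 16.9% with mutant TET2. No test was made of the list counts against these shares. Targets of FGF and ERK signalling were lower in naïve ESCs as a group: 13 of 14 with WT TET2 and 12 of 14 with mutant TET2 were called lower and none higher, with a median difference of -1.86 and -1.64. Spry4, a feedback inhibitor of the pathway, differed by -5.17 and -5.09, the ETS factor Etv4 by -3.99 and -3.91, and the ERK phosphatase Dusp6 by -3.75 and -4.00. Of 11 genes of the WNT and GSK3 list, 5 with WT and 6 with mutant TET2 were higher and 2 lower in both lines. The WNT targets Sp5 (4.61 and 3.94), Cdx1 (2.62 and 1.495) and Axin2 (1.89 and 1.37) were higher, and the repressor Tcf7l1 (-1.05 and -0.82) and its relative Tcf7l2 (-0.93 and -0.89) were lower. Some of these sizes rest on values near the floor. Over the 3 primed libraries of a line, Cdx1 had 1 read with WT and 6 with mutant TET2, and Sp5 had 19 and 11. Over the naïve libraries, Spry4 had 4 and 1 and Etv4 had 4 and 9. In the LIF and STAT3 list, 2 of 8 were higher in both lines and none lower: Jak2 (1.01 and 1.05) and Pim1 (1.15 and 1.19), whereas Stat3 (0.28 and 0.36) and Socs3 (-0.03 and 0.22) did not pass the test.

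Other genes of the pluripotent state moved in both directions beside the factors. Their counts stand beside 18.6% of all genes called higher and 17.3% lower with WT TET2, and 18.3% and 16.9% with mutant TET2. Of 11 core factors, none was called higher and 6 with WT and 7 with mutant TET2 were lower, among them Lin28a (-3.07 and -3.38) and Utf1 (-2.18 and -2.26), whereas Pou5f1 (-0.12 and -0.17) and Sox2 (-0.04 and -0.16) did not pass the test. Of 19 other naïve-associated genes, 4 with WT and 3 with mutant TET2 were higher and 8 in each line were lower. Tcl1 (1.10 and 0.94) and Pecam1 (0.80 and 0.76) were higher in both lines, Dppa3 passed with WT (1.01, adjusted p = 0.0145) and not with mutant TET2 (0.73, adjusted p = 0.0668), and Bmp4 (-3.31 and -2.84), Sox15 (-1.71 and -1.48) and Dppa2 (-1.58 and -2.19) were lower. Of 17 formative and primed genes tested, 9 with WT and 11 with mutant TET2 were lower, led by Dnmt3l (-5.19 and -5.17), a cofactor of de novo methylation, and Otx2 (-2.75 and -3.29), and 2 and 1 were higher, among them the Nodal target Lefty2 (4.08 and 3.29).

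Relatives of the factors by sequence family were called in both directions, as were all genes tested. With WT TET2, 18.6% of all genes were called higher and 17.3% lower, and with mutant TET2 18.3% and 16.9%. Of 11 other KLF genes tested, 3 were higher in each line, Klf15 (1.59 and 1.46) and Klf10 (0.73 and 0.73) in both, and with WT TET2 1 was lower (Klf7, -0.78, beside -0.43 with mutant TET2, which did not pass). Of 19 tested relatives of the nuclear receptors, PRDM, T-box, CP2 and YY1 factors, 2 were higher in each line and 7 with WT and 8 with mutant TET2 were lower. The CP2 factors nearest to Tfcp2l1 went in opposite directions, each called with mutant TET2 only: Tfcp2 (Tcfcp2) was higher (0.13 and 0.62) and Ubp1 lower (-0.39 and -0.52). Grhl1, of the grainyhead family to which the CP2 factors are related, was lower (-2.38 and -1.73) where Tfcp2l1 was higher. Yy1 was lower with Zfp42 (-0.48 and -0.89), and Esrra was higher (0.48 and 0.58) where Esrrb did not pass the test.

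**Figure D3:**
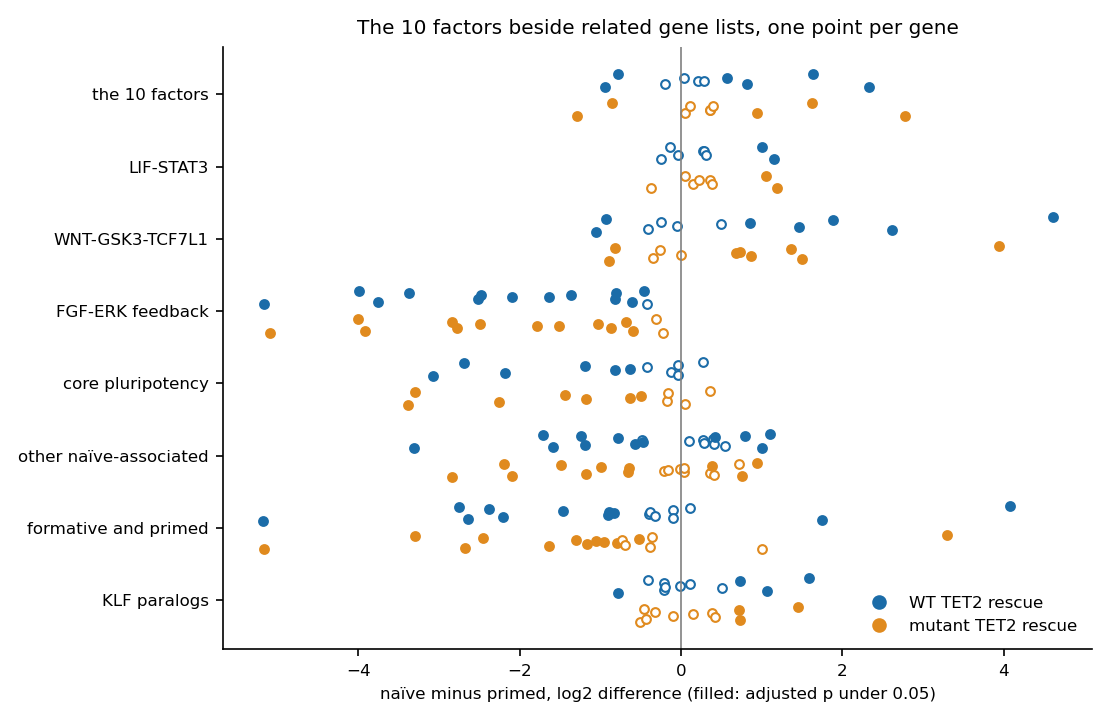
Each point is a gene, and the x axis is the log2 difference of naïve minus primed ESCs. Rows are the 10 factors and 7 gene lists, the colour gives the rescue line, and filled points have an adjusted p under 0.05. The factors spread on both sides of 0, from -1.29 to 2.77, whereas the FGF-ERK targets lie left of 0 throughout.

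The second comparison asks how the factors differ between WT and mutant TET2 within a medium. It shares its libraries with the comparison of media, so the values of both are not independent. In naïve ESCs, limma called none of the 10 factors (0 by limma-voom on the recovered reads, and 1 at an unadjusted p under 0.05, as were 1882 of the 14185 genes), beside 0.0916% of all genes higher and 0.00705% lower with WT TET2. In primed ESCs it again called none (0 by limma-voom, and 2 at an unadjusted p under 0.05, as were 2295 of the 14185 genes), beside 0.204% higher and 0.0493% lower. Those last shares are 29 and 7 genes, and median centring gave 27 and 13 and quantile normalization 29 and 14. The SE of the differences was 0.15 to 0.29, and differences of several SE also missed the threshold with 3 libraries a group. In primed ESCs these were 0.91 ± 0.20 for Tfcp2l1 (adjusted p = 0.0791) and 0.53 ± 0.17 for Esrrb (adjusted p = 0.2, limma). The lack of calls therefore does not exclude differences of that size. With the numbered pairs of naïve libraries as a block, 36 genes instead of 14 were called in naïve ESCs, and none of the 10 factors (smallest adjusted p = 0.135, for Tfcp2l1).

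Tfcp2l1 differed most between the lines. With WT TET2 its naïve values (13.31, 12.89 and 13.04) lay above those with mutant TET2 (12.76, 12.36 and 12.73), and so did its primed values (10.94, 10.31 and 11.00 against 9.72, 9.64 and 10.17). The difference was 0.46 ± 0.20 in naïve ESCs (1.38-fold, adjusted p = 0.35) and 0.91 ± 0.20 in primed ESCs (1.92-fold, adjusted p = 0.0791). In primed ESCs it passed the threshold without WT primed replicate 2 (1.13, adjusted p = 0.0397) and without mutant primed replicate 3 (1.07, adjusted p = 0.0344).

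Averaged over both media, Tfcp2l1 was the only factor called, 0.68 ± 0.14 higher with WT TET2 (1.61-fold, adjusted p = 0.0212), where 1.09% of all genes were called higher and 2.02% lower. This fold was taken from the log2 difference, whereas the other folds are ratios of mean normalised reads. All 3 libraries with WT TET2 lay above all 3 with mutant TET2 in each medium, and the exact two-sided permutation test within media gave 0.005, the smallest p it can give. The call was lost without the filter (adjusted p = 0.107) and without WT primed replicate 1 (0.0774) or 3 (0.0732), mutant primed replicate 1 (0.06) or 2 (0.0575), or mutant naïve replicate 2 (0.0704), with differences of 0.62 to 0.79 over all libraries left out. The lines also differed in Tet2 RNA (above) and in the 14 Y-linked genes tested, whose median difference was 1.35 in naïve and 1.48 in primed ESCs, and the part of either in the value of Tfcp2l1 was not tested.

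Esrrb was the next largest among the factors in primed ESCs. Its primed values were 12.28, 11.97 and 12.33 with WT and 11.75, 11.57 and 11.66 with mutant TET2, without overlap, and the difference was 0.53 ± 0.17 (1.46-fold, adjusted p = 0.2). In naïve ESCs the values were 12.09, 12.06 and 11.85 against 11.93, 11.42 and 11.98, which overlapped, and the difference was 0.22 ± 0.17 (adjusted p = 0.568). Averaged over both media it was 0.38 ± 0.12 (adjusted p = 0.079, exact permutation p = 0.015). Every library with WT TET2 was above every library with mutant TET2 for 1 factor in naïve ESCs (Tfcp2l1, where 8.78% of all genes showed this and 8.01% the reverse) and for 3 in primed ESCs (Esrrb, Tfcp2l1 and Nr0b1, where 11.5% showed this), and the reverse held in primed ESCs for Zfp42 (10.9%).

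The other factors had smaller differences between the lines. Averaged over both media, Tbx3 (0.36 ± 0.20), Klf5 (0.35 ± 0.15), Prdm14 (0.27 ± 0.14), Nr0b1 (0.25 ± 0.13) and Klf2 (0.14 ± 0.14) had higher means with WT TET2, with adjusted p between 0.183 (Klf5) and 0.577 (Klf2). Klf4 (0.05 ± 0.11, adjusted p = 0.803), Nanog (-0.04 ± 0.14, adjusted p = 0.907) and Zfp42 (-0.18 ± 0.18, adjusted p = 0.591) had differences below or near their SE. The mean was higher with WT TET2 for 8 of the 10 factors and for 51.5% of all genes tested, and the median over the 10 was 0.26, beside 0.01 over all genes tested. Among the genes of the lists above, 1 was called between the lines when averaged over both media: Tdgf1, a Nodal co-receptor, was lower with WT TET2 (-0.44, adjusted p = 0.0463). In that average, 1.09% of all genes tested were called higher and 2.02% lower.

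**Figure D4:**
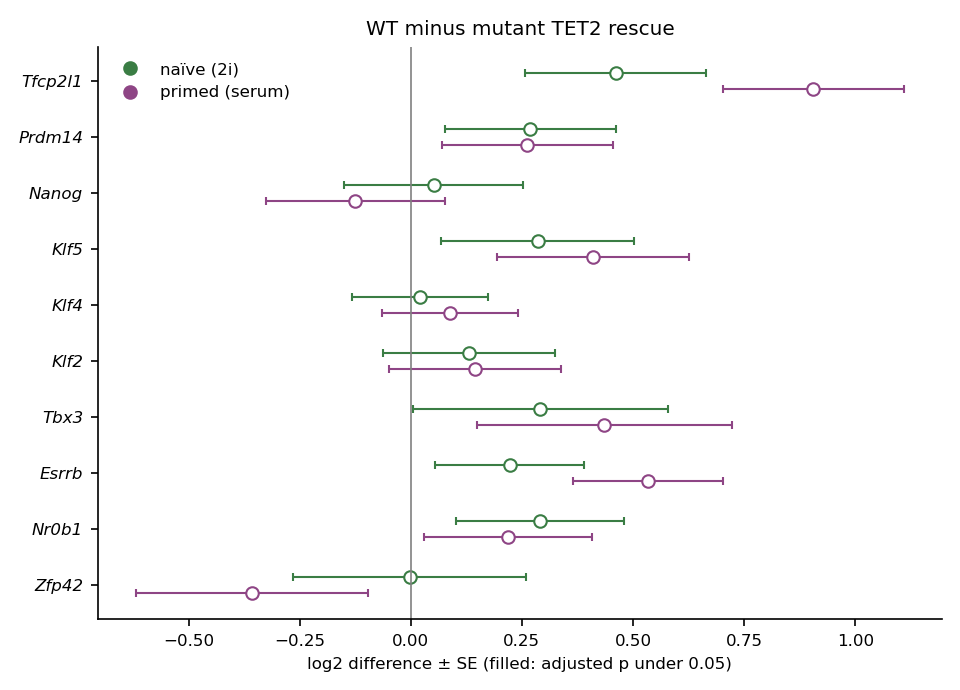
The x axis gives the log2 difference of WT minus mutant TET2 with its SE, and the rows are the 10 factors. Colours mark naïve and primed ESCs. All points are open, since none has an adjusted p under 0.05, and Tfcp2l1 stands furthest from 0 (0.46 and 0.91).

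Whether the difference between the lines depends on the medium was tested as an interaction. None of the 10 factors was called (0 by limma-voom, and 0 at an unadjusted p under 0.05), nor was any of the 14185 genes (0.0%), of which 489 had an unadjusted p under 0.05. The interaction was -0.44 ± 0.29 for Tfcp2l1 and -0.31 ± 0.24 for Esrrb, both with the larger difference in primed ESCs, and 0.35 ± 0.37 for Zfp42, each at an adjusted p of 0.976, the smallest among the factors.

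The order of the 4 groups set the factors apart from each other. Tfcp2l1 fell in the order naïve WT, naïve mutant, primed WT and primed mutant, with no overlap between any neighbours. Prdm14 and Klf5 had the same order, with overlap between the lines in each medium and none between media. Zfp42 ran from primed mutant to primed WT to both naïve groups, which overlapped, and Nr0b1 from primed WT to primed mutant to both naïve groups, which overlapped too. For Nanog, Klf2, Klf4, Esrrb and Tbx3 each group overlapped its neighbour in the order. The gene whose pattern over the 12 libraries was most like that of a factor, by the root mean square of the difference between centred log2 values, was Camk1d for Tfcp2l1 (0.26), Fam107b for Prdm14 (0.14), Ndst1 for Klf5 (0.19), Phf10 for Nanog (0.14), Ctdsp2 for Esrrb (0.10), Spg20 for Tbx3 (0.20), 2310008H09Rik for Nr0b1 (0.10) and Pnp2 for Zfp42 (0.16). For Klf4 it was Gm11206 (0.09). Among the factors themselves, Nanog and Klf4 were each other's nearest (0.26), as were Zfp42 and Nr0b1 (0.36), and Tfcp2l1 and its nearest, Prdm14, were 0.54 apart.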

How the data were processed

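Poly(A)-selected RNA of 12 ESC libraries was sequenced by the authors, who trimmed reads with Trim Galore 0.3.3, aligned them to mm9 with TopHat2 2.0.9, placing a read with several equally good positions at random, and counted reads per gene. The gene counter and its annotation are not given in the sources used here. The deposited values are log2-scale values that the authors made with the variance-stabilising transformation of DESeq2, after size factors. A second deposited table, on repeat classes, was not used here.

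The transformation was inverted, which gave whole reads for 100% of the values of each library (within 0.1 read), and normalised reads, RPKM and depth come from these. RPKM used the union of exons annotated in mm9. Reads are not independent molecules, so depth limits the precision of counting only. The test was limma (3.58.1, under R 4.3.3), fitted to the 4 groups together over the 12 libraries, with a variance trend. Genes entered it when their mean exceeded the table's floor by 1 or more, and p-values were adjusted over these genes by Benjamini-Hochberg. limma-voom was run on the recovered reads. Single values were also compared by exact two-sided permutation tests (scipy 1.17.1). The fit was also run on simulated data with independent libraries, for the naïve and averaged differences between the lines and the interaction. Differences between media were not simulated, and neither were deviations shared by same-numbered libraries. Tables were made with pandas 2.3.3 and numpy 2.4.6 under Python 3.11.15, and figures with matplotlib 3.10.9.

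Libraries were grouped by their labels. Same-numbered WT and mutant libraries deviated together in naïve ESCs (correlations of 0.3 to 0.586 over the genes tested) but not in primed ESCs (-0.0652 to 0.189), so replicate numbers were taken to pair only the naïve libraries, from the data and not from a stated shared day or culture. Over the 10 factors alone, the correlations were 0.344 to 0.64 in naïve and 0.162 to 0.691 in primed ESCs, so a pairing of the primed libraries is not excluded. The factors and gene lists were chosen with earlier results of these data known. All 10 factors are named, with up to 3 genes of the largest difference per list, direction and comparison among those called, Tet2 and Setdb1 as checks, and the most similar gene of each factor, except 2 genes under this rule that are not reported here. Genes of the lists that did not pass the test, the relatives of the factors beyond that rule and the libraries pointed out in the text were chosen after their values were seen. Differences are on the variance-stabilised log2 scale, which compresses the changes of low genes.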

Additional observations from a re-analysis of the deposited data

How the results depend on the processing

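Of 826 alternative values for 54 differences of single factors, 781 kept their direction and their side of the threshold, 15 lost the call, 7 gained it and 23 changed sign. The calls of Tfcp2l1, Prdm14 and Nr0b1 between media in both lines, and of Klf5 and Zfp42 with mutant TET2, held in each alternative. Without the filter on low genes, 3 factors instead of 6 were called between media with WT TET2 and 0 instead of 1 between the lines averaged over media; the cause was not tested. With each library left out, the count between media was 4 to 6 with WT and 5 to 6 with mutant TET2, between the lines 0 to 1 in primed ESCs and 0 to 1 averaged over media, and 0 in naïve ESCs.

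With the replicate block, primed ESCs gave 1 factor called between the lines (Tfcp2l1, adjusted p = 0.00808) and the average over media gave 3 (Tfcp2l1 at 0.00234, Esrrb at 0.0452 and Tbx3 at 0.041); since primed libraries share only a number, these are not read as stronger. Over all genes the block gave 209 calls instead of 36 in primed ESCs and 1683 instead of 440 averaged over media. The block changed no other call of a factor. Leaving out libraries moved these counts to 5 to 14 (naïve), 12 to 82 (primed) and 76 to 1706 (average), the top value without mutant primed replicate 3, and no filter gave 83 for the average and 12 instead of 0 for the interaction.

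Signs changed only for differences that were not called. Under quantile normalization these were Klf4 between the lines in naïve ESCs (-0.047), and Nanog in primed ESCs (0.050) and averaged over media (0.098). With libraries left out, the ranges that crossed 0 were, between media with WT TET2, -0.14 to 0.17 for Klf2 and -0.12 to 0.46 for Tbx3, and -0.084 to 0.18 for Klf2 with mutant TET2. Between the lines in naïve ESCs they were -0.12 to 0.29 for Nanog, -0.051 to 0.27 for Klf2, -0.065 to 0.11 for Klf4 and -0.39 to 0.29 for Zfp42. They were -0.014 to 0.17 for Klf4 in primed ESCs, -0.12 to 0.083 for Nanog averaged over media, and -0.033 to 0.64 for the interaction of Zfp42. With the longest annotated transcript as length, Esrrb had 62.3 to 93.8 RPKM by group in place of 44.3 to 66.7, and Tbx3 25.7 in place of 23.9 in naïve ESCs with WT TET2.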
